A study of Homo sapiens with 6 samples.

Results

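Divergent protein coding promoter pairs are stretches of DNA from which 2 protein coding genes are read in opposite directions. The pairs were drawn from GENCODE version 44 on GRCh37 (hg19): a minus strand gene on the left and a plus strand gene on the right, head to head, with the 5′ ends of both gene records (the TSSs) at most 1000 bp apart, on the autosomes and chromosome X. This rule, which used no measured value, gave 883 pairs at 821 loci, made of 1703 of the 20098 protein coding genes. At 762 loci there was 1 pair, and the other 121 pairs shared a gene or overlapped. The TSSs were 1 to 995 bp apart, with a median of 131 bp and quartiles of 69 and 247 bp. The pairs were compared with 16572 single promoters, protein coding genes with no other protein coding TSS within 1000 bp. Of these, 1315 had the 5′ end of an annotated lncRNA gene head to head within 1000 bp and are called single promoters with a lncRNA partner.

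The data came from native ChIP-Seq (nChIP-Seq), in which chromatin is cut into nucleosomes by micrococcal nuclease and immunoprecipitated without crosslinking. The cells were U2OS, a human osteosarcoma line, grown to 2 days past confluence. Of the 2 lines used, ProMMP2-3xHA was made by stable lentiviral transduction and constitutively expresses full-length pro-MMP-2 with a C-terminal 3xHA tag beside its own MMP2 gene, and WT is U2OS without the tag. The lists used were 3 HA replicates of the ProMMP2-3xHA cells, each called against an HA control immunoprecipitation, 1 merged HA list of these replicates, and 2 H3K4me3 lists, 1 library from either line. A separate HA list of WT cells was not used here. The tagged protein was expressed from a transgene, so the HA peaks describe the tagged protein and not the endogenous MMP-2.

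At a divergent promoter, 1 nucleosome-depleted region serves both genes, and transcription in each direction meets its own first nucleosome, called the +1 nucleosome. Such promoters are common in the human genome, are often rich in CpG and poor in TATA boxes, and frequently join genes for housekeeping functions such as DNA repair, translation and mitochondrial work. The replication-dependent histone genes H2A and H2B are the classical case of a pair that is used together. H3K4me3, the trimethylated lysine 4 of histone H3, marks the nucleosomes that flank active TSSs, and MMP-2 is a metalloprotease that cleaves the tail of histone H3 on which this mark lies.

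The DNA between the TSSs is shown for 6 pairs that carry the results on height and position of the HA peaks. It is the plus strand of GRCh37, 5′ to 3′, without the TSS bases, and no annotated exon lies in it. Capitals mark matches, on either strand, to the 9 motifs searched: ETS (CCGGAAG), NRF1 (GCATGCGC), the CCAAT box (CCAAT), YY1 (AAGATGGCG), the CTCGCGAG element, the GC box (GGGCGG), the TATA box (TATAAA), the octamer (ATTTGCAT) and CRE (TGACGTCA). CRE was added to the search after these sequences had been seen. The first 3 sequences, at chr1:149858233-149858467, chr6:27100575-27100821 and chr6:27114635-27114884, are of histone pairs, the highest of which heads all pairs, and all 3 had summits in both genes. ZBTB4/POLR2A (chr17:7387583-7387684) had the highest fold enrichment of the pairs without histone genes. SRSF7/GEMIN6 (chr2:38978637-38978675) had its summits in the minus strand gene only. DDX51/NOC4L (chr12:132628865-132629001) had its summits between the TSSs.
H2BC21/H2AC20: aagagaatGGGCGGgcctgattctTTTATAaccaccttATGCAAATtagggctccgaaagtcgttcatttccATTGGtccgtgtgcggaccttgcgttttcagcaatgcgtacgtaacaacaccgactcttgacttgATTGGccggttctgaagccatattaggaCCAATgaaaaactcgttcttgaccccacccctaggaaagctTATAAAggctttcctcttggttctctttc
H2BC11/H2AC11: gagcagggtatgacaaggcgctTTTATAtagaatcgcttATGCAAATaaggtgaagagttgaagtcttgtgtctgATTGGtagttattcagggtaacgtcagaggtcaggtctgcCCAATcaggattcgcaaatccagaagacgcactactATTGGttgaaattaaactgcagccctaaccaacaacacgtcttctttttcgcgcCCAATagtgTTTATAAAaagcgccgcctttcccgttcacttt
H2BC12/H2AC12: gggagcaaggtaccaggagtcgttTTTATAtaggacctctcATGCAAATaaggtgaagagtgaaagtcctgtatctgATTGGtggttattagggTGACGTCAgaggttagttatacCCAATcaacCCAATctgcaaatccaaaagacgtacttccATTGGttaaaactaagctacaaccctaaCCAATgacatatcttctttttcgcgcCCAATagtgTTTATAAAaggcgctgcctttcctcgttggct
ZBTB4/POLR2A: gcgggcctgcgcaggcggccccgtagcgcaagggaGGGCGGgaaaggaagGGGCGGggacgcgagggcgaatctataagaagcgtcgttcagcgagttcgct
SRSF7/GEMIN6: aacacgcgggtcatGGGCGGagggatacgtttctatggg
DDX51/NOC4L: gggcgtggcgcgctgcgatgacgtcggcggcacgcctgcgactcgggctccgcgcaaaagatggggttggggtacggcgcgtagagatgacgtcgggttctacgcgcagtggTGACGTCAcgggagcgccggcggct

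The 3 histone sequences shared several matches. Each held a TATA box near either end and 1 octamer beside the H2B gene, and they held 3, 4 and 6 CCAAT boxes in the order shown. In H2BC11/H2AC11 and H2BC12/H2AC12, the 2 TATA matches next to the H2A gene overlap on opposite strands. H2BC21/H2AC20 alone among the 3 held a GC box and H2BC12/H2AC12 alone a CRE. Their GC content was 46.4%, 43.7% and 42.4%. The other 3 sequences held no TATA box and no CCAAT box. ZBTB4/POLR2A held 2 GC boxes at a GC content of 68.6%, SRSF7/GEMIN6 held 1 GC box at 59.0%, and DDX51/NOC4L held 1 CRE at 70.8%.

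Over 500 bp windows centred on the midpoint of a pair or on a single TSS, the pairs had a median GC content of 63.6% and a median CpG ratio (observed over expected from the base composition) of 0.841. The single promoters had 61.0% and 0.679, and those with H3K4me3 in both lines had 66.4% and 0.834. The ETS motif was in 31.9% of the pairs (95% exact interval 28.9 to 35.1), in 12.7% of all single promoters and in 20.3% of those with H3K4me3 in both lines. NRF1 was in 10.2% of the pairs (8.28 to 12.4), against 3.67% and 5.71%. The TATA box was in 8.15% of the pairs (6.43 to 10.2), against 15.3% and 7.63%, and the CCAAT box was in 49.5% (46.1 to 52.8), against 44.6% and 42.1%. Among the pairs with H3K4me3 in both lines, those with a merged HA region held ETS in 33.8% (29.5 to 38.3) and those without in 32.6% (27.6 to 37.8), and the median GC content was 64.0% and 63.6%. The TATA box was in 9.21% (6.74 to 12.2) and 5.81% (3.59 to 8.84) of these, with intervals that overlap. Pairs that share DNA count more than once in these shares, and a match is not a bound site.

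A merged HA region lay within 1 kb of 467 of the 883 pairs (52.9%, interval 49.5 to 56.2). Over all protein coding TSSs, those of the pairs included, this background share was 28.3%. The background scored each TSS alone, whereas a pair counted by either of its TSSs, so the window of a pair was longer. An H3K4me3 region was present at 812 pairs in ProMMP2-3xHA cells (92.0%, 90.0 to 93.7, background 57.2%) and at 829 pairs in WT cells (93.9%, 92.1 to 95.4, background 61.1%). A peak of every HA replicate lay within 1 kb of 263 pairs (29.8%, 26.8 to 32.9, background 16.2%). Intervals here and below cover counting error only. A merged HA region was present at 15 of the 30 pairs whose TSSs were 801 to 1000 bp apart, and at 9 of the 15 head to head pairs just outside the limit, up to 1200 bp apart.

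HA was found only at pairs with H3K4me3 in at least 1 line. All 467 pairs with a merged HA region had H3K4me3 in both lines, which makes 57.6% (54.1 to 61.0) of the 811 pairs so marked. This link was not particular to pairs. A merged HA region was present at 4008 of the 16572 single promoters, most of them with H3K4me3 in both lines. Of the 8435 single promoters so marked, 4514 had no merged HA region. None of the 53 pairs without H3K4me3 in either line had a merged HA region or a peak of any replicate, which allows a share of up to 6.72% (upper bound of the exact interval). Among these 53 were pairs of genes of restricted tissues, such as MS4A6A/MS4A4A, TPRX1/CRX and OR11A1/OR2H1, and pairs with a broadly used gene, such as NFE2/COPZ1, RAD51D/FNDC8 and ARRDC5/UHRF1. These examples were picked after the values were seen, and the 53 were not counted by tissue. The examples rest on the 5′ ends of the gene records. Their values describe those sites and not other transcript starts of these genes. The 18 pairs with H3K4me3 in WT cells only had no merged HA region, and 1 of them, LMF1/SOX8, had a peak of replicate 2 with a fold enrichment of 4.17. The only pair with H3K4me3 in ProMMP2-3xHA cells alone, BTG4/HOATZ, had no HA peak. A single H3K4me3 region spanned both TSSs at 712 pairs (80.6%, 77.9 to 83.2) in ProMMP2-3xHA cells and at 769 (87.1%, 84.7 to 89.2) in WT cells. The TSSs were a median of 131 bp apart and the regions a median of 1804 and 2219 bp wide. A region at 1 TSS will thus often reach the other. The H3K4me3 lists are 1 library each, so these values describe those libraries.

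To compare pairs with single promoters over windows of equal length, an HA peak was sought within 1 kb of the midpoint of each pair and of each single TSS. In replicate 1 a peak was present at 37.9% of the pairs and 17.3% of the single promoters. In replicate 2 these shares were 47.5% and 24.4%, and in replicate 3 they were 54.2% and 24.4%. The pairs were higher in 3 of 3 replicates, by 24.5 ± 4.79 percentage points (mean ± SD, n = 3). An exact two-sided permutation of the sign over the 3 replicates gave p = 0.25, the smallest that 3 replicates allow (adjusted p = 0.375 over 6 such tests), so no comparison of this kind could pass 0.05. H3K4me3 moved with this difference: it was present in both lines at 810 of the 883 pairs and at 8435 of the 16572 single promoters in the same windows.

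Among promoters with H3K4me3 in both lines, the difference was smaller. The shares were 41.2% of the pairs and 33.1% of the single promoters in replicate 1, 51.6% and 46.4% in replicate 2, and 59.1% and 46.9% in replicate 3. The pairs remained higher in 3 of 3 replicates, by 8.51 ± 3.51 points (exact permutation p = 0.25, adjusted p = 0.375). Against the single promoters with a lncRNA partner, of which 33.7%, 46.0% and 47.0% had a peak in replicates 1, 2 and 3, the pairs were higher by 4.32 ± 2.90 points (exact permutation p = 0.25, adjusted p = 0.375). When both of these classes were limited to H3K4me3 in both lines, an alternative chosen after seeing the data, 40.7%, 55.6% and 57.1% of 1073 single promoters with a lncRNA partner had a peak, and the pairs differed by −0.51 ± 3.14 points, higher in 2 of 3 replicates (exact permutation p = 1). That difference was smaller than the spread between replicates.

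**Figure D1:**
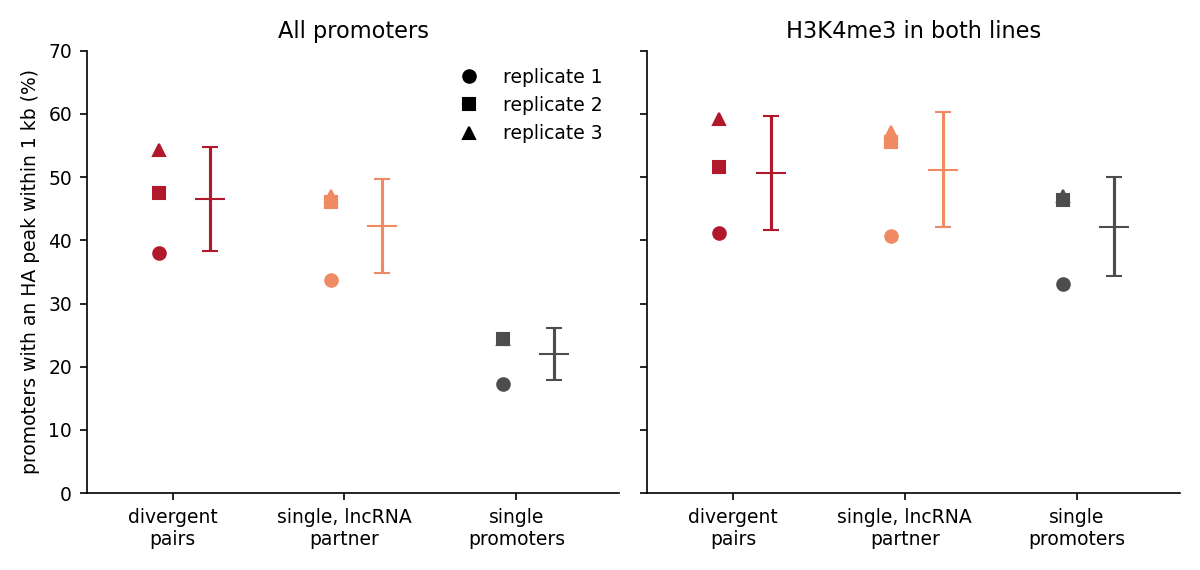
Share of promoters with an HA peak within 1 kb (%, vertical axis) in divergent pairs, single promoters with a lncRNA partner and all single promoters, for all promoters (left) and for those with H3K4me3 in both lines (right). Symbols are the 3 HA replicates and bars are mean ± SD (n = 3). The pairs lie far above all single promoters on the left (means 46.5% and 22.0%), while on the right the pairs and the single promoters with a lncRNA partner cover the same range.

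H3K4me3 regions were wider at pairs than at single promoters. In ProMMP2-3xHA cells the median width was 1804 bp at 811 pairs, 1660.5 bp at 1074 single promoters with a lncRNA partner and 1348 bp at all 8479 single promoters with a region, a ratio of pairs to single promoters of 1.34. In WT cells the medians were 2219 bp, 2053 bp and 1723 bp, a ratio of 1.29. In both classes the HA share was higher at wider regions. At H3K4me3 regions of 0.5 to 1 kb, 27.5% ± 6.09 of the pairs and 27.1% ± 5.63 of the single promoters had an HA peak (mean ± SD over the 3 replicates). Narrower regions, present at only 14 pairs, gave 19.0% ± 4.12 and 8.15% ± 1.84. At 1 to 1.5 kb the shares were 38.1% ± 8.17 and 42.1% ± 9.02, lower at pairs in each replicate. At 1.5 to 2 kb the shares were 52.5% ± 8.98 and 51.8% ± 9.58, and at 2 to 3 kb they were 57.8% ± 10.6 and 59.9% ± 9.86. The 58 pairs over 3 kb reached 78.2% ± 10.5, and the 489 single promoters of that width 67.5% ± 8.88. Over the promoters with an H3K4me3 region of 1 to 2 kb (405 pairs and 4005 single promoters, chosen after seeing the data), the pairs differed by 2.20, −1.61 and 2.76 points in replicates 1, 2 and 3, a mean of 1.12 ± 2.37 (exact permutation p = 0.5).

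**Figure D2:**
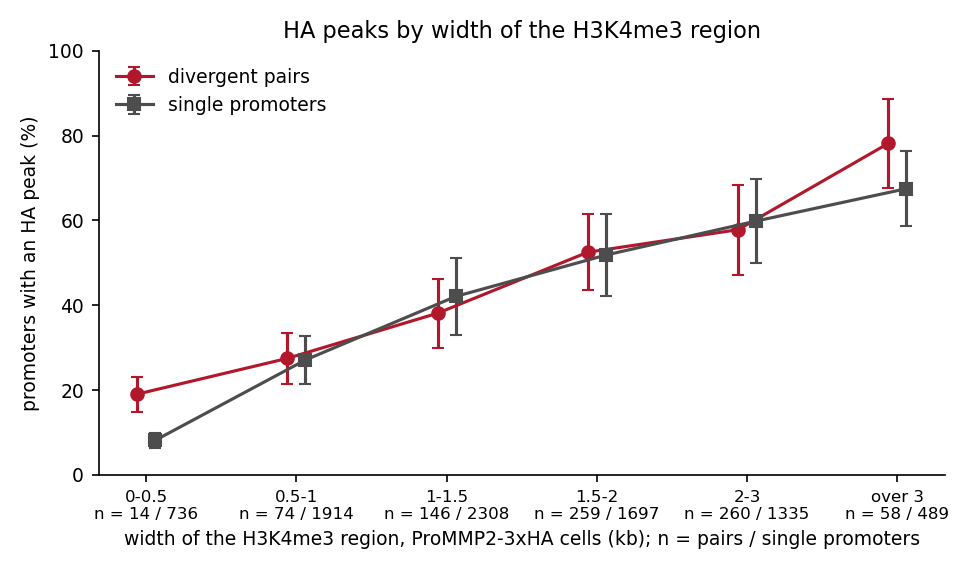
Share of divergent pairs and single promoters with an HA peak (%, mean ± SD over the 3 replicates) by the width of the H3K4me3 region in ProMMP2-3xHA cells (kb), with the number of pairs and single promoters under each class. Both curves rise together from 0.5 kb to 3 kb, and the narrowest class holds only 14 pairs.

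The difference was present in every class of GC content. In windows under 50% GC, which held 27 pairs, the pairs exceeded the single promoters by 21.0 ± 2.73 points. In windows of 50 to 60% GC the pairs exceeded the single promoters by 28.1 ± 2.54 points, at 60 to 70% by 17.3 ± 4.94 and at 70% or more by 15.1 ± 6.05 (mean ± SD, n = 3), without a match for H3K4me3.

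In height, the peaks at pairs and at single promoters did not differ beyond the spread between replicates. The median of the highest fold enrichment over the control was 4.87 at pairs and 5.00 at single promoters in replicate 1, 5.63 and 5.63 in replicate 2, and 5.00 and 4.98 in replicate 3. The log2 difference was −0.011 ± 0.024, lower at pairs in 2 of 3 replicates (exact permutation p = 0.75, adjusted p = 0.9). Behind these values stood a median of 52, 54 and 47 fragments at the pair summits of replicates 1, 2 and 3, over a control background of 2, 2.25 and 2 fragments, and 53, 52 and 45 fragments at the single promoters. These HA counts are not scaled to the control. The HA libraries were estimated at 3.565, 2.807 and 3 times the depth of the control. Fold enrichment scales the HA count down by this ratio and adds 1 to both counts. The merged HA regions were also of similar width, with a median of 525 bp at pairs and 489 bp at single promoters, and 7.92% and 8.96% of them were over 2 kb.

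The summits were then placed relative to both TSSs. They lay mostly inside the genes, with few between the TSSs. In replicate 1, 186 summits lay in the 500 bp downstream of the minus strand TSS, 190 in the 500 bp downstream of the plus strand TSS and 36 between the TSSs. Replicate 2 had 262, 236 and 54, and replicate 3 had 319, 319 and 50. Per kb and pair, the density between the TSSs was 0.204, 0.307 and 0.284 summits in replicates 1, 2 and 3, against 0.426, 0.564 and 0.723 downstream. It was lower in 3 of 3 replicates, by a log2 ratio of −1.09 ± 0.24 (exact permutation p = 0.25, adjusted p = 0.375). Single promoters were alike in this: over upstream stretches as long as the gaps of the pairs, the log2 ratio to the 500 bp downstream was −1.08, −1.12 and −1.36. The chromatin was cut into nucleosomes, and no input or total H3 profile was compared. Densities and summit positions here and below thus do not separate the placement of HA from that of nucleosomes.

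The strands did not differ beyond the spread between replicates. The share of downstream summits in the plus strand gene differed from 50% by 0.53, −2.61 and 0.00 points in replicates 1, 2 and 3 (exact permutation p = 1, adjusted p = 1). Summits lay at a median of 151, 162 and 155.5 bp inside the gene at pairs and 154, 166 and 165 bp at single promoters. At single promoters 64.2%, 62.9% and 65.5% of the summits within 500 bp lay on the gene side.

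**Figure D3:**
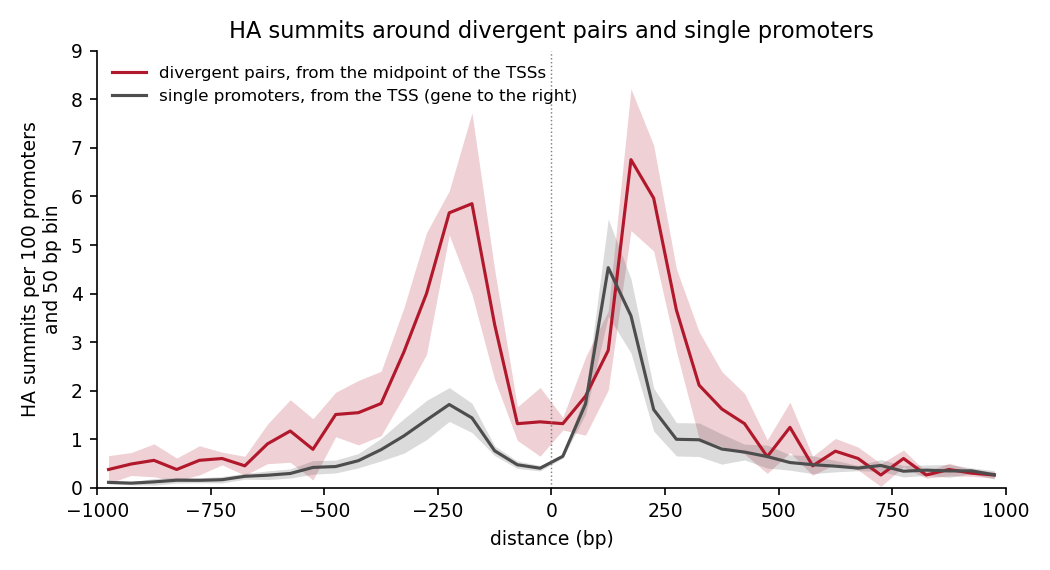
HA summits per 100 promoters in 50 bp bins (vertical axis) by distance in bp from the midpoint of a pair or from a single TSS, with the gene of the single promoter to the right. Lines are means and bands ± SD of the 3 replicates. Pairs show 2 crests, with 5.85 summits per 100 pairs at 150 to 200 bp to the left and 6.76 at 150 to 200 bp to the right, around a low of 1.32 to 1.36 in the 100 bp at the midpoint, whereas single promoters show 1 main crest in the gene and a lower one upstream.

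The density in the gap varied with the distance between the TSSs. In pairs 1 to 100 bp apart, the density between the TSSs was 0.229 ± 0.061 summits per kb and pair (mean ± SD, n = 3) and that downstream 0.627 ± 0.152. At 101 to 250 bp the densities were 0.117 ± 0.059 and 0.592 ± 0.172, and at 251 to 500 bp they were 0.287 ± 0.089 and 0.455 ± 0.103. In the 76 pairs 501 to 1000 bp apart, the densities were 0.390 ± 0.071 and 0.447 ± 0.130, which differ by less than the spread between replicates, although the gap was lower in each replicate (log2 −0.12, −0.02 and −0.38). The gaps of the closest class held only 3, 5 and 5 summits, since there is little DNA between these TSSs. Over the 219 pairs more than 250 bp apart, a limit chosen after seeing the data, the log2 ratio was −0.40. The share of pairs with a merged HA region did not follow the spacing: it was 53.4% (47.9 to 58.7), 50.5% (44.9 to 56.1), 53.8% (45.3 to 62.2) and 59.2% (47.3 to 70.4) in the 4 classes, with intervals that overlap.

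**Figure D4:**
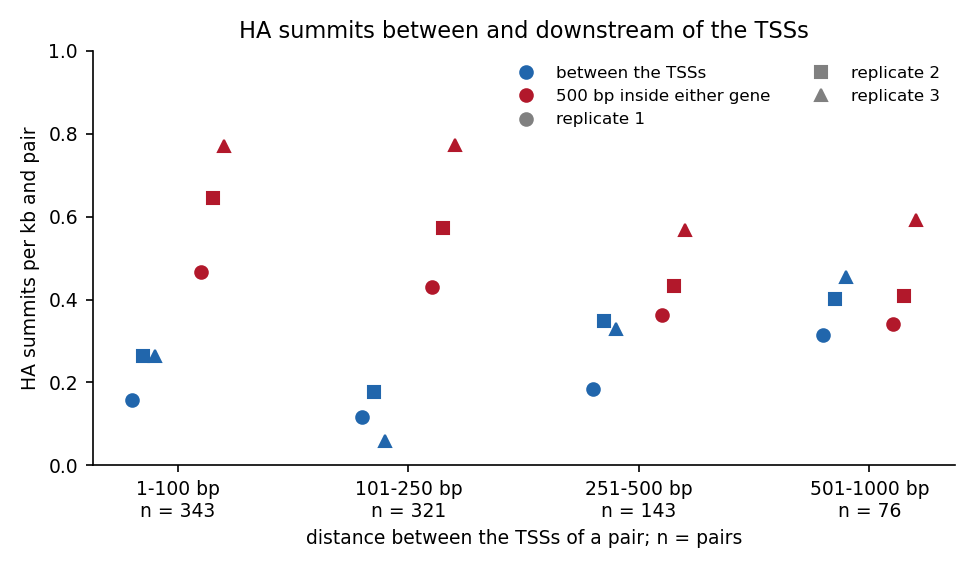
HA summits per kb and pair (vertical axis) between the TSSs (blue) and in the 500 bp inside either gene (red), by the distance between the TSSs in bp, with symbols for the 3 replicates and the number of pairs under each class. Within each replicate blue lies below red in all 4 classes, and at 501 to 1000 bp the difference is smallest and the ranges of both colours overlap.

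Most pairs with a peak had summits in 1 gene at a time. Of the pairs with a summit in the gap or in the 500 bp of either gene, 46 of 325 (14.2%) had summits downstream of both TSSs in replicate 1. Replicates 2 and 3 gave 104 of 399 (26.1%) and 125 of 463 (27.0%), so replicate 1 was the lowest, and the mean was 22.4% ± 7.16. In these pairs the inner summits of both genes lay a median of 422, 438 and 459 bp apart and never closer than 181, 185 and 222 bp. The median distance between their TSSs was 123, 101.5 and 128 bp. In 24 pairs summits were in both genes in every replicate. When each peak interval was given only its highest summit, the share with summits on both sides fell to 5.15%, so most of it came from 1 interval with several summits. The merged HA regions gave a coarser picture: of the 467, 225 (48.2%) covered both TSSs, 27 covered that of the minus strand gene only, 34 that of the plus strand gene only and 5 lay between the TSSs, while 83 and 93 covered no TSS and lay beside the minus and the plus strand TSS.

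The gene that held the highest summit was often the same in all libraries. Of the 262 pairs with a peak in every replicate by the equal windows, 173 (66.0%) had their highest summit in the same zone in every replicate: 86 in the minus strand gene, 78 in the plus strand gene and 9 between the TSSs. The 9 had a median distance of 680 bp between their TSSs. In 89 pairs (34.0%) the zone changed from replicate to replicate. H3K4me3 leaned to the same side. Where 1 H3K4me3 region covered both TSSs of such a pair, it reached farther into the gene with the summit at 105 of 153 pairs (68.6%, 60.6 to 75.9) in ProMMP2-3xHA cells and at 111 of 158 (70.3%, 62.5 to 77.3) in WT cells. In ProMMP2-3xHA cells the median reach was 1033 bp on the summit side and 840 bp on the other for summits in the minus strand gene, and 1083 bp and 903 bp for summits in the plus strand gene.

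The pairs named next were taken by rule: those with the highest mean fold enrichment, those with summits in 1 zone in every replicate, marked pairs without HA, and textbook pairs. The highest mean belonged to H2BC21/H2AC20, a pair of histone genes on chromosome 1, with fold enrichments of 13.8, 21.4 and 22.1 in replicates 1, 2 and 3 (mean 19.1 ± 4.62, SD, n = 3) under a merged HA region of 2978 bp. Its highest summit lay 134 to 161 bp inside H2AC20 in the 3 replicates. H2BC11/H2AC11 followed among the histone pairs with 8.46, 11.9 and 16.7, its highest summit being 766, 745 and 733 bp from the TSS of H2BC11. Replicate 1 was the lowest in both. H2BC4/H2AC6 (8.09, 11.4 and 11.6) and H2BC12/H2AC12 (7.54, 11.5 and 10.8) also stood among the 10 highest, and the highest summit of each changed place between replicates.

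Of the 12 pairs with replication-dependent histone genes, which package newly made DNA, 7 had H3K4me3 in both lines and the same 7 had a merged HA region (58.3%, 27.7 to 84.8), beside 811 and 467 of all 883 pairs. The HA share of the histone pairs was thus near the 52.9% of all pairs, and that of single histone promoters was 43.6%. The other 5, H2AC25/H2BC26, H2AC1/H2BC1, H3C7/H2BC9, H3C12/H2BC17 and H2AC17/H2BC17, had neither H3K4me3 in any line nor HA. H2AC1 and H2BC1 encode the histone variants of the testis. In the 4 histone pairs among the 10 highest, summits lay in both genes in every replicate, and their H3K4me3 regions were 4311 to 4805 bp wide in ProMMP2-3xHA cells. Histone genes have close copies elsewhere in the genome, so reads within their coding sequences can be hard to place.

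ZBTB4/POLR2A, which joins a zinc finger repressor with the largest subunit of RNA polymerase II, had fold enrichments of 12.9, 16.8 and 16.5 (15.4 ± 2.19). The highest summit lay 54, 99 and 91 bp inside POLR2A in the 3 replicates, and in replicate 3 there was also a summit in ZBTB4. SRSF7/GEMIN6, of a splicing factor of the SR family and a member of the SMN complex, had 11.9, 12.8 and 11.5 (12.1 ± 0.67), with every summit in SRSF7, at 180, 225 and 187 bp. In NUDCD1/ENY2 (12.2, 12.8 and 9.83) all summits lay in ENY2, a subunit of the SAGA coactivator, and in VPS52/RPS18 (8.88, 12.8 and 8.54) all lay in RPS18, which encodes a protein of the small ribosomal subunit, 136, 135 and 129 bp from its TSS.

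Further pairs kept their summits in 1 gene. In RSRC2/KNTC1 (8.93, 10.9 and 10.0) they lay 155, 140 and 139 bp inside RSRC2 and none lay in KNTC1, a kinetochore gene, although the gap between them is only 246 bp. In TK1/AFMID (10.2, 8.53 and 9.50) they lay 260, 272 and 302 bp inside TK1, the thymidine kinase of the S phase. In RBP5/CLSTN3 (8.13, 12.7 and 7.05) the highest summit lay 247, 346 and 445 bp inside CLSTN3. HOMER2/RAMAC (7.81, 9.71 and 6.0) was the 1 pair without histone genes among the 5 highest with summits in both genes in every replicate, its TSSs 57 bp apart.

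Summits only between the TSSs in every replicate were seen in 3 pairs. In DDX51/NOC4L (5.36, 7.80 and 5.39), a pair of ribosome assembly genes with TSSs 138 bp apart, the highest summit was 42, 20 and 82 bp upstream of NOC4L. FBXO15/TIMM21 (4.46, 7.18 and 5.58), with the import factor TIMM21 of mitochondria, had TSSs 680 bp apart, and its highest summit lay 237, 193 and 232 bp upstream of FBXO15. CCDC38/AMDHD1 (5.24, 5.01 and 4.43), with a gene of histidine breakdown, had TSSs 696 bp apart and its highest summit 10, 57 and 17 bp upstream of CCDC38. Summits that close to a TSS depend on which transcript start the annotation gives.

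**Figure D5:**
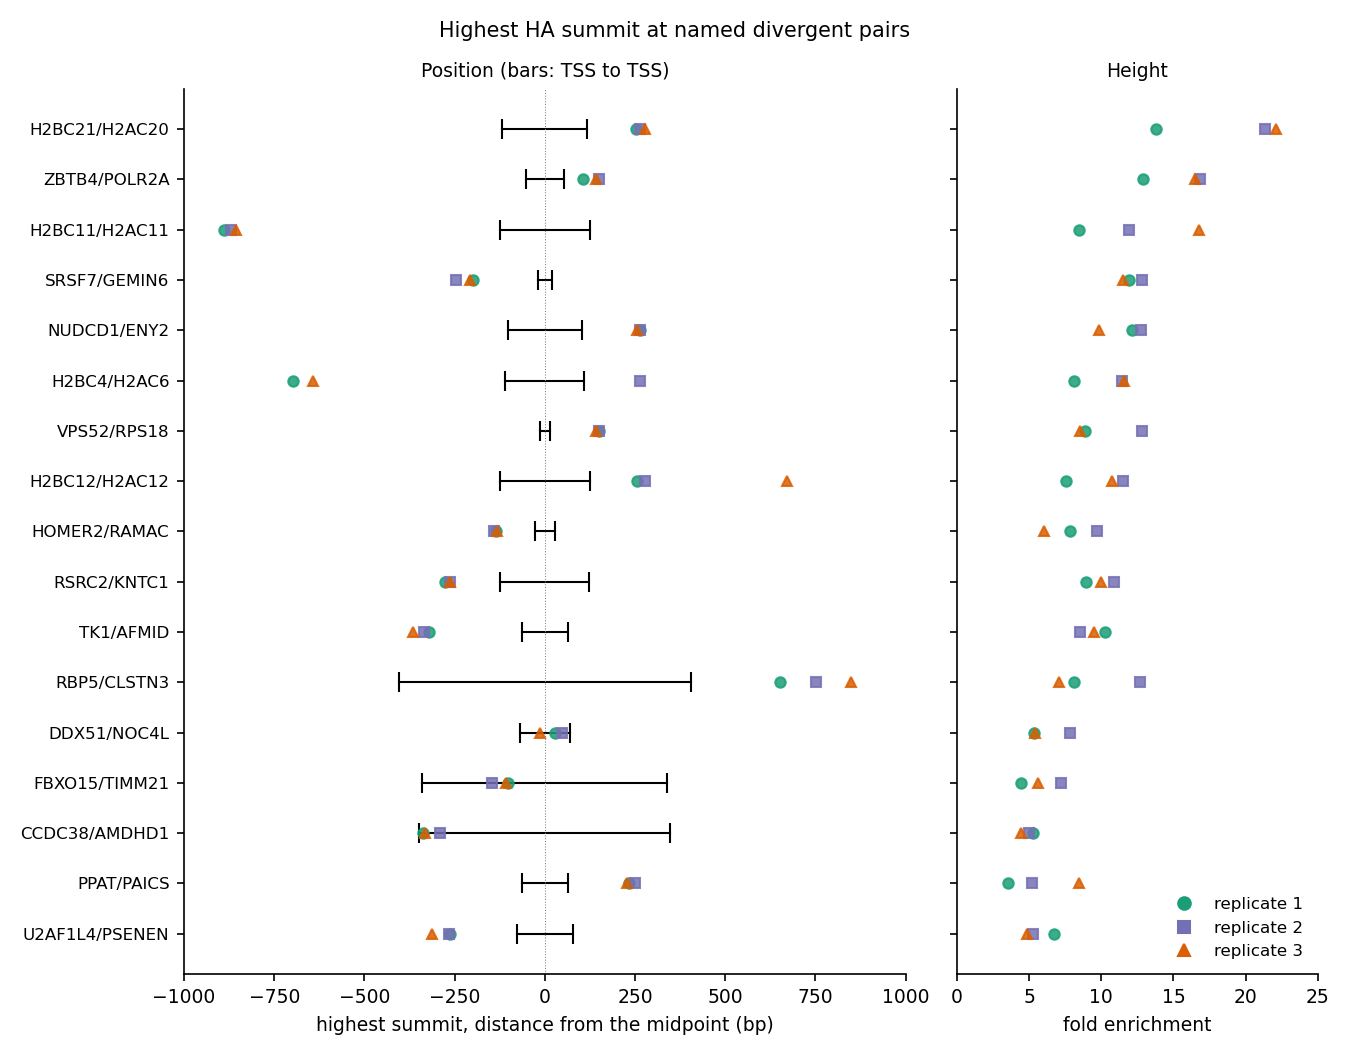
Highest HA summit at 17 named pairs with a peak in every replicate: its distance in bp from the midpoint of the pair (left, with bars from TSS to TSS) and its fold enrichment over the control (right), with symbols for the 3 replicates. The summits lie outside the bars in all pairs but DDX51/NOC4L, FBXO15/TIMM21 and CCDC38/AMDHD1, and H2BC21/H2AC20 and ZBTB4/POLR2A reach the highest values.

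Among 18 textbook divergent or neighbouring pairs, 8 met the rule by their gene 5′ ends. Of these 8, 7 had a merged HA region and 3 had a peak in every replicate, beside 52.9% and 29.7% of all pairs. The purine synthesis pair PPAT/PAICS had 3.51, 5.18 and 8.48, with its summits 170, 187 and 164 bp inside PAICS. TK1/AFMID is described above, and U2AF1L4/PSENEN, with a γ-secretase subunit, had 6.69, 5.29 and 4.84, in U2AF1L4. NPAT/ATM, of the histone gene activator NPAT and the DNA damage kinase ATM, had a peak in replicates 1 and 3 with 4.50 and 6.14 and none in replicate 2. TMEM258/FEN1 had 6.53 and 6.25 in replicates 2 and 3, in TMEM258 and not in FEN1, the flap endonuclease. SIRT3/PSMD13 had 4.76 and 4.56 in replicates 1 and 3. PRKDC/MCM4, of the DNA-PK catalytic subunit and a subunit of the replicative helicase, had 4.54 and 5.18 in replicates 2 and 3 but no merged HA region.

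Pairs were also counted by gene group. A pair entered a group if either of its genes belonged to it, so HA may lie in the partner gene. Both genes belonged to the group in 0 of the 50 and 1 of the 20 pairs of the first 2 groups below. The share with a merged HA region was 76.0% (38 of 50, 61.8 to 86.9) for RNA polymerase, splicing and translation genes and 80.0% (16 of 20, 56.3 to 94.3) for proteasome and chaperone genes, beside 52.9% of all pairs. Single promoters of the same groups were at 51.9% and 49.5%. They were not matched for H3K4me3, which 49 of the 50 and all 20 pairs had in both lines. Of the first group, RPL9/LIAS had 9.09, 9.75 and 6.03 in replicates 1, 2 and 3. Of the second, APTX/DNAJA1, with an HSP40 chaperone, had 6.88, 9.22 and 8.21, and TCP1/MRPL18, with a subunit of the chaperonin that folds actin and tubulin, had 6.09, 9.48 and 7.75. The proteasome and chaperone pairs without a merged HA region were PSMA1/PDE3B, DCDC1/DNAJC24, PSMA2/MRPL32 and PSMD10/ATG4A, though all 20 had H3K4me3 in both lines.

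The shares were 54.5% (18 of 33, 36.4 to 71.9) for DNA replication and repair, 47.9% (23 of 48, 33.3 to 62.8) for the mitochondrial ribosome, respiratory chain and import, and 41.9% (13 of 31, 24.5 to 60.9) for zinc finger genes. Single promoters of these groups, again not matched for H3K4me3, were at 55.0%, 40.7% and 29.3%. In the repair group, LIPT2/POLD3, with a subunit of DNA polymerase δ, had 6.21, 10.2 and 7.53, while BRCA1/NBR1 and PCNA/CDS2 had H3K4me3 but no merged HA region. BRCA1/NBR1 rests on the 5′ end of the BRCA1 gene record, 236 bp from NBR1. Its values describe that site and not other transcript starts of BRCA1. These pairs of the gene groups were picked as examples after their values were seen. No test was run between groups.

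H3K4me3 without HA was also seen at pairs, though less often than at all single promoters. No merged HA region was present at 344 of the 811 pairs and 4514 of the 8435 single promoters with H3K4me3 in both lines. The pairs were scored here from either TSS, which makes a longer window. In the equal windows, pairs were also set against single promoters with a lncRNA partner, both with H3K4me3 in both lines. Their HA shares differed by −0.51 ± 3.14 points (mean ± SD over the replicates), as given above. In 233 pairs (26.4%), H3K4me3 was present in both lines and no HA list had a peak. Those with the closest TSSs, 1 to 11 bp apart, were NEK1/CLCN3, LSM7/SPPL2B, ARFIP2/ENSG00000283977, GATM/SPATA5L1, GIN1/PPIP5K2 and, tied with the last at 11 bp, LIPA/IFIT5. The H3K4me3 regions of the first 5 were 601, 1786, 1428, 2284 and 2208 bp wide in ProMMP2-3xHA cells, so regions above the 1804 bp median of all pairs were among them. By the equal windows, 313 pairs had a peak in no replicate, 169 in 1, 139 in 2 and 262 in all 3.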

How the data were processed

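nChIP-Seq peak lists of 5 of the 6 samples and the merged HA list were analysed. The authors trimmed reads (Trim Galore 0.6.0), aligned pairs to hg19 (Bowtie2 2.3.5.1), filtered on mapping quality (SAMtools 1.9), removed duplicates with Picard and called peaks with MACS2 3.0.0a6 at a q-value of 0.05. Deposited HA lines give summit, score, fold enrichment (a ratio to the control) and the −log10 p-value and q-value. The merged HA and H3K4me3 lists join narrow and broad calls and hold only intervals.

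TSSs were gene 5′ ends. A region counted within 1 kb of a TSS. Python 3.11.15, numpy 2.4.6, pandas 2.3.3 and scipy 1.17.1 were used, and window counts were checked against bedtools 2.31.1. Each summit entered 1 of 3 zones: between the TSSs or 500 bp inside either gene. Fragments were recovered from fold enrichment and p-value for 80.8 to 83.3% of the peaks (scaled pileup within 0.06 of a whole number). H3K4me3 depth is unknown. Scripts were tested on simulated data.

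Replicate values were tested by exact two-sided sign permutation (6 tests, Benjamini-Hochberg). The study's methods describe the HA replicates as independent biological experiments. Shares carry exact (Clopper-Pearson) 95% intervals. Pairs sharing a gene were all counted, with 1 pair per locus as an alternative.

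Named pairs were, by rule, the 10 with the highest mean fold enrichment, the 5 highest with summits in both genes in every replicate, the 3 highest with summits in each single zone, the 5 closest marked pairs without HA, and textbook pairs. No pair had a merged HA region without H3K4me3 in either line. Values of some pairs that this rule names are not reported here. The members, lists and tests were chosen with earlier results of these data known.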

Additional observations from a re-analysis of the deposited data

How the results depend on the processing

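Each result was recomputed under 3 to 14 alternatives, 113 values in all, of which 97 kept their direction or stayed within their error. No sign test over 3 replicates can pass 0.05, so these alternatives bear on size and direction only. The difference in HA share between pairs and single promoters ranged from 1.12 points (H3K4me3 of 1 to 2 kb, chosen after seeing the data) to 27.3 points (TSS of the canonical transcript), and that at promoters with H3K4me3 in both lines from 3.73 points (peak over the interval itself) to 11.7 points. The difference from single promoters with a lncRNA partner was 2.85 to 5.75 points when 1 replicate was left out, lowest without replicate 3, and reversed to −0.51 points with H3K4me3 in both lines. The log2 difference in fold enrichment, of −0.011, was −0.019 to 0.0026 when 1 replicate was left out and reversed without replicate 1. The plus strand share minus 50%, of −0.69 points, was 0.11 at a q-value of at most 0.001, 1.17 with zones of 250 bp, −2.25 with the canonical TSS (negative in 3 of 3 replicates) and −1.31 to 0.27 with 1 replicate left out, reversing without replicate 2. Summit density between the TSSs stayed below that downstream under all 11 alternatives (log2 −1.80 to −0.40). The share of pairs with summits in both genes was 5.15% with the highest summit of each interval and 20.1 to 26.5% with 1 replicate left out. A region over the interval itself gave 33.0% for merged HA and 84.4% and 90.3% for H3K4me3 in ProMMP2-3xHA and WT cells. With the canonical TSS (974 pairs), these shares were 58.0%, 95.7% and 96.7%, those of 1 region over both TSSs 87.6% and 92.0%, and the width ratios 1.39 and 1.33. With 1 pair per locus (821 pairs), no result reversed or moved. The causes of these shifts were not tested. No paired analysis was possible because the H3K4me3 libraries share only replicate number 1 with the HA replicates. The depth of 47 to 54 fragments per summit and the single H3K4me3 libraries limit the precision.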
